A study of Mus musculus with 18 samples.

Results

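The GFP-negative (GFP-) cells of Col2.3GFP transgenic mice were compared between fresh long bone and bone chip culture. The 6 libraries were chosen by their labels out of the 18 of the series: 3 of GFP- cells sorted directly from long bone (bone GFP-) and 3 of GFP- cells sorted from cultured bone chips (bone chip GFP-). In this line green fluorescent protein is driven by a fragment of the Col1a1 promoter that is active in maturing osteoblasts. GFP- cells are thus those without reporter signal, and both groups are labelled as heterogeneous. Whether other cells were gated out as well, in either source, was not tested. The bone chip cells carry the treatment label osteogenic differentiation, and the fresh cells carry no treatment label. Age, sex and strain background of the mice and the length of the culture were not given in the sources used here, and the labels do not say whether the replicates are different animals or dishes. The p-values therefore measure only how far these libraries spread, which may be technical. The question was which genes differ between the reporter-negative cells of fresh bone and those of bone grown in culture.

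The reporter-negative cells of bone include chondrocytes of growth plate and joint cartilage, marrow stromal cells, fibroblasts, tendon and muscle cells, vessel cells and blood cells, besides precursors of the osteoblast that have not yet switched on the reporter. Chondrocytes make a matrix of type II, IX and XI collagen and the proteoglycan aggrecan, and those that enlarge beside the growth plate switch to type X collagen. Chips of bone laid in a dish release cells that attach, spread and multiply, and ascorbate- and phosphate-containing osteogenic media are commonly used to make such outgrowths mineralise.

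In these 6 libraries the source, the deposited table and the sex of the animals cannot be told apart, because fresh bone and bone chips were deposited in separate tables that share 15968 gene symbols, while 1205 symbols were in the fresh table alone and 998 in the chip table alone. Total counts were 5482065 to 6468750 in bone GFP- and 9829832 to 17553194 in bone chip GFP- libraries. The ribosomal precursor Rn45s took 0.0561 to 0.146% of the counts of bone GFP- libraries and 8.96 to 11.5% of those of bone chip GFP- libraries. Ddx3y, a gene of the Y chromosome, was at 90.5, 155 and 68.1 CPM (counts per 1000000 counts, on library totals scaled by trimmed mean of M values) in bone GFP- replicates 1 to 3 and had no count in bone chip GFP-, at least 1493-fold lower against a floor of 3 counts over the group. Xist, the RNA of the inactive X chromosome, was at 0, 0.352 and 1.80 CPM in bone GFP- and at 569.6, 615 and 623 CPM in bone chip GFP-. Libraries of each source stood apart in blood cell genes: granulocyte genes summed to 362 CPM in bone GFP- replicate 1 against 9.14 and 10.8 CPM in the other two, and to 467 CPM in bone chip GFP- replicate 3 against 102 and 49.9 CPM, where Lcn2 alone was at 462 CPM, and monocyte and macrophage genes summed to 5380 CPM in bone chip GFP- replicate 2 against 606 and 466 CPM. In bulk samples such as these, fewer cells of a type and less RNA per cell cannot be told apart.

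Of 12664 genes that passed the filter on low counts, 4269 (33.7%) were higher and 4035 (31.9%) lower, 65.6% in either direction, in bone chip GFP- than in bone GFP- libraries by edgeR's quasi-likelihood test with Benjamini-Hochberg adjustment at 0.05. The 3 libraries of one source did not overlap those of the other in 72.3% of the genes tested. The median log2 difference, bone chip minus bone, was 0.04. Against this background a list with a like share of its genes in each direction stands where the genes as a whole stand, and the counts below are read so.

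The largest rises were ranked among called genes with at least 10 CPM in the higher group and no overlap between the sources. They were led by genes with almost no count in fresh bone. Rgs17, a regulator of G protein signalling, had no count in any bone GFP- library and 35.1, 30.2 and 37.3 CPM in bone chip GFP-, at least 197-fold higher. Clec2d, a C-type lectin, had none in bone GFP- and 32.7, 26.4 and 28.7 CPM in bone chip GFP-, at least 165-fold higher. The secreted acute phase protein Saa3 and the neutrophil-attracting chemokine Cxcl5 were also among these genes: Saa3 was at 0.677, 0.527 and 1.08 CPM in bone GFP- and at 482, 246 and 1288 CPM in bone chip GFP-, a log2 difference of 9.77 ± 0.84 (SE, n = 3 against 3, adjusted p = 2.6e-05). Cxcl5 was at 0.338, 0.352 and 0.539 CPM against 284, 208 and 703 CPM (9.89 ± 0.70, adjusted p = 1.0e-05). Both were highest in bone chip GFP- replicate 3.

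Most other rises of this rank were genes of macrophages, among them Mrc1, Mpeg1, Ccr2, Emr1, C1qa, C1qb, Msr1 and Ccl9, and Xist ranked with them. Mrc1, a mannose receptor, was at 0.169, 0 and 0 CPM in bone GFP- and at 30.6, 340.0 and 21.8 CPM in bone chip GFP-. Ccl9, a chemokine, was at 0, 0.176 and 0 CPM in bone GFP- and at 37.2, 103 and 34.3 CPM in bone chip GFP-. Lack of overlap was a condition of this ranking. In each of these named macrophage genes bone chip GFP- replicate 2 was the highest.

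The 15 largest falls held genes of cartilage matrix, secreted factors and regulators of growth. The 2 falls that came from genes with no count in bone chip GFP- were Ddx3y and Crtac1, a cartilage acidic protein, which was at 18.9, 18.8 and 7.37 CPM in bone GFP- and so at least 216-fold lower in bone chip GFP-. Il17b, a cytokine, was at 79.8, 55.4 and 70.8 CPM in bone GFP- and had 2 counts in all of bone chip GFP-, a ratio of 1472 (95% exact interval 407 to 12173, counting error only). Sfrp5, a secreted Wnt antagonist, was at 85.3, 67.2 and 67.9 CPM against 0.199, 0.141 and 0 CPM (-9.42 ± 0.42, adjusted p = 1.9e-06). The ranking of falls, too, took only called genes whose libraries did not overlap between the sources.

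The other large falls held growth regulators and secreted proteins. Dlk1, a transmembrane inhibitor of adipocyte differentiation, was at 138, 154 and 255 CPM in bone GFP- and at 0.598, 0.494 and 0.108 CPM in bone chip GFP- (-8.94 ± 0.47, adjusted p = 3.4e-06). Gpc3, a glypican of the cell surface, and Phlda2, an imprinted growth regulator, each had a single count in bone chip GFP- against 333 and 297 counts in bone GFP-. C1qtnf3, a secreted protein also known as cartducin, was at 2000.1, 2629 and 1291 CPM against 5.18, 6.42 and 3.07 CPM (-8.67 ± 0.44, adjusted p = 2.9e-06). Car2, the carbonic anhydrase of erythrocytes and osteoclasts, was at 61.9, 77.2 and 43.0 CPM against 0, 0.0705 and 0.269 CPM. Fxyd2, a regulator of the sodium pump, was at 153, 189.9 and 174 CPM against 0.0996, 1.90 and 0.215 CPM. Tnfrsf13c, the receptor for a B cell survival factor, had 324 counts against 3.

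The labelled marker genes were found in all 6 libraries and were lower in bone chip GFP-. Col2a1 (mm9 chr15:97806033-97835155, minus strand), which encodes type II collagen, was at 248412, 131807 and 279724 CPM in bone GFP- and at 5742, 3750.0 and 7938 CPM in bone chip GFP-, with means of 219981 ± 77949 and 5810.1 ± 2095 CPM (SD, n = 3). Its log2 difference was -5.24 ± 0.49 (adjusted p = 3.8e-05). Acan (chr7:86198369-86259985, plus strand), the core protein aggrecan, was at 3131, 3096 and 4788 CPM against 375, 299 and 347 CPM (-3.43 ± 0.24, adjusted p = 1.0e-05). Every fresh library lay above every chip library in both genes. Cd34 (chr1:196765015-196787486, plus strand), a sialomucin of haematopoietic and vascular progenitors and of fibroblasts, was at 41.4, 37.3 and 48.0 CPM against 19.7, 19.5 and 17.1 CPM. The difference of Cd34 was -1.17 ± 0.16 (adjusted p = 2.6e-04), and its adjusted p was 0.187 when GFP+ (hi) libraries entered the same fit.

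**Figure D1:**
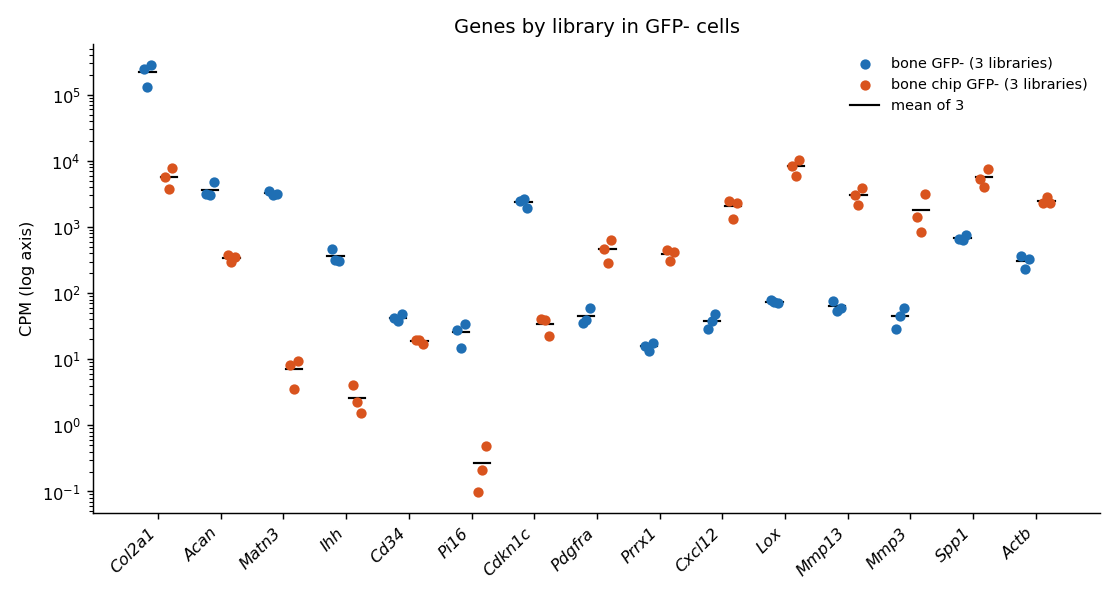
CPM on a log axis for 15 genes in each of the 3 bone GFP- and 3 bone chip GFP- libraries, with a point per library. The Col2a1 points of bone chip GFP- sit between 3750.0 and 7938 CPM, all below the lowest bone GFP- point at 131807 CPM.

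The chondrocyte genes fell as a group: 18 of 20 tested were lower and none was higher, with a median log2 difference of -5.32. Their summed level was 186312 to 364852 CPM in bone GFP- and 8053 to 14721 CPM in bone chip GFP-. The cartilage collagen genes Col9a1, Col9a2, Col9a3, Col11a1 and Col11a2 all fell, with Col9a3 at 14477, 7011 and 15158 CPM against 87.6, 61.8 and 89.1 CPM (-7.26 ± 0.42, adjusted p = 4.5e-06). The matrilins, which bridge collagen and proteoglycan, fell furthest: Matn3 was at 3526, 3022 and 3109.9 CPM against 8.17, 3.60 and 9.31 CPM (-8.84 ± 0.42, adjusted p = 2.4e-06), and Matn1 at 1371, 774 and 988 CPM against 6.08, 5.36 and 2.31 CPM. Chad, a leucine-rich protein that binds chondrocytes to their matrix, was at 3398, 3311 and 4045 CPM against 27.99, 15.7 and 43.8 CPM. No library of one source reached the range of the other in any of these genes, as in 72.3% of all genes tested.

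The transcription factors of the chondrocyte did not move alike. Sox9, the master regulator of the lineage, was at 1954, 2219 and 1747 CPM against 114, 93.9 and 119 CPM (-4.18 ± 0.20, adjusted p = 2.4e-06), and its partner Sox5 differed by -0.68, a call lost in each fit without 1 library but that without bone chip GFP- replicate 3 (-0.42 to -0.75, adjusted p = 0.0562 to 0.119). After a correction for transcript length Sox5 was still called lower, and its largest fall over all alternatives was -1.79. Sox6, the other partner, was at 48.7, 57.8 and 54.1 CPM against 61.9, 45.9 and 56.3 CPM (0.03 ± 0.16, adjusted p = 0.882), and the sources overlapped, but it was lower after a correction for transcript length (-1.25, adjusted p = 1.3e-04). Prg4, the lubricin of the joint surface, was the other member that was not called, at 1225, 1566 and 2040.1 CPM against 1239, 561 and 1723 CPM (-0.46 ± 0.38, adjusted p = 0.321). The count was 17 lower without bone GFP- replicate 1 and bone chip GFP- replicate 2.

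Of the 5 genes that mark hypertrophic chondrocytes, 4 were lower and 1 was higher. Ihh, the hedgehog ligand of the growth plate, was at 458, 319 and 309 CPM in bone GFP- and at 4.08, 2.26 and 1.56 CPM in bone chip GFP- (-7.16 ± 0.38, adjusted p = 3.4e-06). Pth1r, the receptor for parathyroid hormone and its related peptide, differed by -3.63 ± 0.20, Panx3, a channel protein, by -3.33 ± 0.19 and Col10a1, the collagen of hypertrophic cartilage, by -2.95 ± 0.33. Mmp13, a collagenase that osteoblasts and stromal cells make too, went the other way, at 77.1, 53.4 and 60.4 CPM against 3019, 2123 and 3879 CPM (5.56 ± 0.31, adjusted p = 4.1e-06). The libraries of the sources did not overlap in any of the 5, nor in 72.3% of all genes tested.

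The 16 osteoblast genes held 6 that were higher and 7 that were lower, with a median of -0.10. Among those higher were the collagen chains Col1a1 and Col1a2, the mineral-binding phosphoproteins Spp1 and Ibsp, and the transcription factor Runx2. Spp1, osteopontin, was at 653, 644 and 746 CPM against 5331, 3983 and 7657 CPM (3.05 ± 0.27, adjusted p = 3.2e-05). The sources stood apart without overlap in Spp1, as in 72.3% of all genes tested.

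Among those lower were the osteocalcin genes Bglap and Bglap2, the matrix protein Sparc, the transcription factors Sp7 and Dlx5, and Smpd3, a sphingomyelinase needed for mineralisation. Smpd3 was at 3987, 4323 and 3562 CPM against 95.0, 88.1 and 100.2 CPM (-5.39 ± 0.20, adjusted p = 1.6e-06); chondrocytes express it as well. Bglap was at 120.1, 151 and 157 CPM against 24.01, 52.0 and 34.4 CPM (-1.95 ± 0.27, adjusted p = 3.5e-04), and since Bglap and Bglap2 are near copies their split is uncertain. Alpl, the alkaline phosphatase of mineralising cells, was at 1094, 728 and 1069 CPM against 710.1, 757 and 666 CPM (-0.44 ± 0.19, adjusted p = 0.0749), and was called lower without bone GFP- replicate 2 (-0.62, adjusted p = 0.00837). Col1a1, whose promoter drives the reporter, was at 8761, 8253 and 18519 CPM against 32989.8, 28766 and 27678 CPM (1.33 ± 0.35, adjusted p = 0.00958). That call was lost without bone GFP- replicate 1 (1.16, adjusted p = 0.0551) and after a correction for transcript length (0.56, adjusted p = 0.170), and Col1a2 lost its call in the same fits (1.04, adjusted p = 0.0545, and 0.49, adjusted p = 0.162).

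Of the 9 osteocyte genes 6 passed the filter and 3 of these were higher. Ptprz1, a receptor phosphatase, was at 0.338, 0.176 and 1.80 CPM against 25.1, 50.8 and 22.8 CPM (5.41 ± 0.62, adjusted p = 1.2e-04). Pdpn, the podoplanin of early osteocytes and of stromal fibroblasts, was at 7.78, 15.1 and 13.8 CPM against 123, 95.8 and 172 CPM (3.41 ± 0.31, adjusted p = 3.3e-05). Dmp1, a matrix phosphoprotein, differed by 1.66 ± 0.44 (adjusted p = 0.0104). The late osteocyte genes Sost and Fgf23 did not pass the filter, and Mepe (0.07) and Phex (0.78) were not called.

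Genes of progenitors and fibroblasts moved in both directions: of 21 tested, 11 were higher and 7 lower, with a median of 0.68, and their summed level was 7379 to 9487 CPM in bone GFP- and 22746 to 32692 CPM in bone chip GFP-. Prrx1, a transcription factor of limb mesenchyme, was at 16.1, 13.2 and 17.8 CPM against 448, 305 and 417 CPM (4.64 ± 0.22, adjusted p = 2.4e-06). Pdgfra, a growth factor receptor of mesenchymal cells, was at 35.0, 39.4 and 60.2 CPM against 467, 285 and 626 CPM (3.36 ± 0.34, adjusted p = 5.7e-05). The surface proteins Thy1 (4.40 ± 0.39) and Vcam1 (3.57 ± 0.22) were higher as well, as were Ly6a (3.17) and Pdgfrb (2.90). In contrast Pi16, a marker of fibroblasts around vessels, was at 27.6, 14.9 and 34.7 CPM against 0.0996, 0.212 and 0.485 CPM (-6.39 ± 0.51, adjusted p = 1.7e-05). Gli1, an effector of hedgehog signalling, differed by -2.99 ± 0.35, Gsn, an actin-severing protein, by -2.49 ± 0.17, and Nt5e, the ectonucleotidase CD73, by -1.90 ± 0.30. The genes of this list that were lower thus included Cd34, Pi16, Gli1 and Nt5e, and those that were higher included the receptors Pdgfra and Pdgfrb.

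Genes of marrow stromal cells and adipocytes were higher in 8 of 10 tested and lower in none, with a median of 3.04. Cxcl12, the chemokine that holds blood stem cells in the marrow, was at 29.1, 38.5 and 47.8 CPM against 2466, 1329 and 2349.8 CPM (5.73 ± 0.34, adjusted p = 5.0e-06). Kitl, stem cell factor, was at 1.52, 5.10 and 5.39 CPM against 48.2, 35.4 and 67.1 CPM (3.65 ± 0.42, adjusted p = 1.2e-04). The adipocyte regulator Pparg (4.29 ± 0.52), the fatty acid carrier Fabp4 (3.90 ± 0.39) and the leptin receptor Lepr (2.66 ± 0.47) were higher too. Adiponectin, Adipoq, differed by 1.11 and was not called.

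Contractile genes of smooth muscle and pericytes were higher in 6 of 9 tested and lower in 2. Acta2, the actin of smooth muscle, was at 17.4, 12.1 and 12.8 CPM against 140.4, 201 and 112 CPM (3.42 ± 0.27, adjusted p = 1.6e-05), with Tagln (3.87 ± 0.29), Cnn1 (4.26 ± 0.68) and the kinase gene Mylk (3.89 ± 0.29) in the same direction. Rgs5, which marks pericytes, and Des, desmin, were the 2 that were lower, at -3.58 ± 0.87 and -1.99 ± 0.41. The tendon genes were lower in 4 of 6 and higher in none: Tnmd, tenomodulin, was at 36.4, 45.5 and 45.3 CPM against 3.39, 2.75 and 1.35 CPM (-4.13 ± 0.32, adjusted p = 1.5e-05), Mkx differed by -1.49, Scx by -1.16 and Fmod by -1.10. The call of Scx was lost after the length correction (adjusted p = 0.0662).

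Endothelial genes were at low levels in both sources. Of 5 tested 4 were lower and none higher, and the list summed to 23.9 to 31.6 CPM in bone GFP- and 10.96 to 18.9 CPM in bone chip GFP-. The fifth differed by 1.08 and was called higher without bone GFP- replicate 1 and bone chip GFP- replicate 2. Kdr, a member not tested, had 2 counts in bone GFP- and 57 in bone chip GFP-, a ratio of 11.4 (95% exact interval 3.02 to 96.7). Cdh5, not tested either, had 3 against 4. Ramp2, a receptor partner of endothelial cells, was at 10.2, 7.56 and 12.9 CPM against 0.797, 0.564 and 0.592 CPM (-3.97 ± 0.35, adjusted p = 3.0e-05), and Pecam1, the adhesion molecule CD31, at 1.69, 1.23 and 2.70 CPM against 0.199, 0.0705 and 0.0538 CPM. Red cell precursors gave 4 of 4 tested lower, with Klf1, the erythroid Krüppel-like factor, at 198 counts in bone GFP- and 3 in bone chip GFP-, a ratio of 165 (95% exact interval 55.5 to 805). The 2 megakaryocyte genes tested, Gp1bb (-2.81 ± 0.39) and Itga2b (-1.55 ± 0.30), were also lower, the second losing its call with GFP+ (hi) libraries in the fit (adjusted p = 0.141).

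Skeletal muscle gave 3 of 4 tested lower, with Tnnt3, a fast troponin, at 11.3, 17.1 and 9.35 CPM against 0.697, 0.917 and 0.538 CPM (-4.12 ± 0.37, adjusted p = 3.3e-05). In the Schwann and neural list 2 of 4 were lower, among them S100b, which chondrocytes make too, at -2.43 ± 0.29. Epithelial genes were lower in 2 of 3, with Epcam at 202 counts against 1, a ratio of 504 (95% exact interval 89.4 to 19992). The other, Krt10, a keratin (-1.16 ± 0.38, adjusted p = 0.0250), lost its call without bone GFP- replicate 1 or 2 or bone chip GFP- replicate 2 or 3 (adjusted p = 0.0557 to 0.0927). Neither of the 2 mast cell genes nor the 1 T and NK cell gene tested was called, and none of the 9 pluripotency genes passed the filter, their sums staying at 0.352 to 1.02 CPM in bone GFP- and 0.353 to 0.592 CPM in bone chip GFP-.

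Of the monocyte and macrophage genes 11 of 12 tested were higher and none was lower. Their median was 7.32, or 6.81 with genes at 0 in a group set to their bound. The summed level was 41.0 to 60.4 CPM in bone GFP- and 466, 606 and 5380 CPM in bone chip GFP-. Csf1r, the receptor for macrophage colony-stimulating factor, was at 1.52, 0.879 and 1.62 CPM in bone GFP- and at 32.2, 353 and 28.2 CPM in bone chip GFP- (6.67 ± 1.27, adjusted p = 0.00184). C1qa, a complement chain, had 2 counts against 3107, a ratio of 623 (95% exact interval 172 to 5147), and C1qb 3 against 5001. Bone chip GFP- replicates 1 and 3 lay above every fresh library in these genes, and replicate 2 lay higher again.

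Without bone GFP- replicate 1 and bone chip GFP- replicate 2 the macrophage count stayed at 11 of 12. It was 5 higher by DESeq2 and 2 by limma voom. DESeq2 gave no adjusted p for 54 of the 12664 genes, Csf1r, Emr1, C1qa, C1qb and Mrc1 among them, and its count leaves these out. Genes shared by all blood cells rested more on single libraries: 5 of 11 were higher, but 1 to 8 when 1 library was left out and none by limma voom. Ptprc, the leukocyte antigen CD45, was at 5.58, 0 and 0.180 CPM in bone GFP- and at 9.16, 76.5 and 6.41 CPM in bone chip GFP- (3.96 ± 1.32, adjusted p = 0.0275). Its adjusted p was 0.0950 without bone GFP- replicate 2, 0.0983 without bone GFP- replicate 3 and 0.101 without bone chip GFP- replicate 2.

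B cell genes were present mainly in bone GFP- replicate 1. Cd79a, a chain of the B cell receptor, was at 46.2, 3.87 and 1.80 CPM in bone GFP- and at 0.398, 0.141 and 0.162 CPM in bone chip GFP- (-6.25 ± 1.37, adjusted p = 0.00389), and Cd79b had 255 counts against 1. The third called gene of the list, Ebf1, which stromal cells and adipocytes also express, was higher (0.76 ± 0.15, adjusted p = 0.00242), but it turned to -0.04 after the length correction. Of 15 granulocyte genes listed only Camp and Lcn2 passed the filter. Camp, a granule peptide, was at 30.1, 0.352 and 0.719 CPM against 2.49, 1.62 and 4.31 CPM (-1.87 ± 1.24, adjusted p = 0.214) and turned to 2.39 (adjusted p = 0.0217) without bone GFP- replicate 1, and Lcn2, lipocalin 2, which many inflamed tissues secrete, was higher (6.74 ± 1.24, adjusted p = 0.00153) at 98.0, 37.6 and 462 CPM in bone chip GFP-.

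Genes of class II antigen presentation gave 1 lower of 4 tested, H2-Ab1, at 34.3, 39.4 and 27.5 CPM in bone GFP- and 4.48, 12.7 and 4.41 CPM in bone chip GFP- (-2.22 ± 0.41, adjusted p = 0.00161). H2-Aa was at 4.06, 3.69 and 4.49 CPM against 0.0996, 10.9 and 0.215 CPM and was not called (-0.12 ± 1.24, adjusted p = 0.937). Without bone chip GFP- replicate 2 all 4 genes were lower, with H2-Aa at -4.45. In the osteoclast list 5 of 7 were higher and 1 lower. Itgb3, an integrin chain of osteoclasts and platelets, differed by 2.25 ± 0.37, and Ctsk, cathepsin K, was at 80.0, 56.8 and 87.2 CPM against 147, 137 and 126 CPM (0.88 ± 0.18, adjusted p = 0.00286). Nfatc1, the master transcription factor of osteoclasts, which is found in other cells too, was at 1022, 1311 and 1071 CPM against 92.7, 78.2 and 113 CPM (-3.58 ± 0.21, adjusted p = 4.6e-06) and set the sum of the list, 1145 to 1412 CPM in bone GFP- and 308 to 327 CPM in bone chip GFP-. The number of osteoclast genes that were higher was 2 without bone GFP- replicate 1 and 3 without bone chip GFP- replicate 2.

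**Figure D2:**
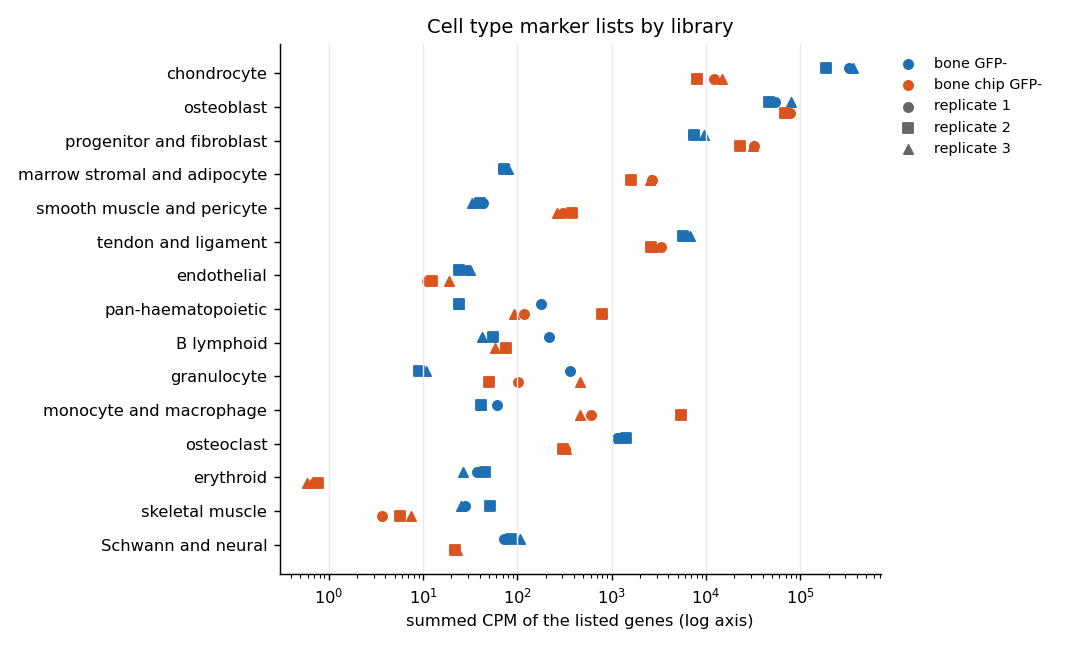
Summed CPM, on a log axis, of 15 lists of cell type genes in each of the 3 bone GFP- and 3 bone chip GFP- libraries. Chondrocyte sums of 186312 to 364852 CPM in bone GFP- stand above 8053 to 14721 CPM in bone chip GFP-, and the macrophage sum of 5380 CPM in bone chip GFP- replicate 2 stands above those of the other 2 chip libraries.

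The interferon-response genes were higher throughout: 15 of 15 tested were called higher, with a median of 3.90. Type I interferons act through a transcription factor complex with IRF9, which binds an interferon-stimulated response element in the promoters of its targets. The promoters of 3 genes described here are printed because they hold the element's core, which is GAAA, 2 bases of any kind and GAAA again (TTTC in place of GAAA where it lies on the other strand). Each covers 250 bases before to 50 after the start in RefSeq GRCm38.p6, a later build than the mm9 of the alignment, at chr19:34640639-34640938 (plus strand) for Ifit1, chr12:26456403-26456702 (minus strand) for Rsad2 and chr5:120907476-120907775 (minus strand) for Oas1a, written 5′ to 3′ along the gene with the motif in capitals.
Ifit1: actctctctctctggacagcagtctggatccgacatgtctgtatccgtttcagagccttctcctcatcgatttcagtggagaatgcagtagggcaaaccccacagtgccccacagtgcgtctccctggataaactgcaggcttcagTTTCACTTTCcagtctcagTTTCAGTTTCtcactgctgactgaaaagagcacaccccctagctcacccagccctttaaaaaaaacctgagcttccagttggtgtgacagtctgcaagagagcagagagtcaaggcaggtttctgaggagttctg
Rsad2: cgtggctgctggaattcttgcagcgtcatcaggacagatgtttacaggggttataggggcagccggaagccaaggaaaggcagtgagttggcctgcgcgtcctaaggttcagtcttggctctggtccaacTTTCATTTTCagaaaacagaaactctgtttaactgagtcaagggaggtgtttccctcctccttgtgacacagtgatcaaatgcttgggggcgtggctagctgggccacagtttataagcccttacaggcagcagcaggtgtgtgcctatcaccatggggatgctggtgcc
Oas1a: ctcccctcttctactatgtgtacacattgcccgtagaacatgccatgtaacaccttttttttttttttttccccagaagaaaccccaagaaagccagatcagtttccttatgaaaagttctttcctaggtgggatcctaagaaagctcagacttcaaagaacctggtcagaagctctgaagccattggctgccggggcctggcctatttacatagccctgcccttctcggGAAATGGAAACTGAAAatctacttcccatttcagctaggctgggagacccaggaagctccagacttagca
Ifit1 held 2 matches, Rsad2 held 1 and Oas1a 2 that overlap. The motif was found in 8 of the 12 genes of the list that had a window (66.7%), in 346 of the 9501 tested genes with a window (3.64%) and in 3.44% of all 32851 windows of this length, and Ifi44 had none. A match is a description of the letters and no measure of binding, and the share in the list follows from which genes were put in it.

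Ifit1, which binds foreign RNA, was at 0.677, 1.05 and 1.80 CPM in bone GFP- and at 68.4, 37.2 and 67.6 CPM in bone chip GFP- (5.61 ± 0.39, adjusted p = 9.2e-06). Rsad2, the antiviral enzyme viperin, was at 0.338, 0.352 and 0.180 CPM against 13.2, 15.1 and 15.3 CPM (5.58 ± 0.34, adjusted p = 5.3e-06). Oas1a, which makes oligoadenylate on double-stranded RNA, was at 0.338, 0.879 and 0.539 CPM against 21.2, 21.6 and 15.5 CPM (5.03 ± 0.35, adjusted p = 9.7e-06). In bone chip GFP- replicate 2, where the macrophage sum was highest, 9 of the 15 genes had their lowest chip level and 2 their highest. The part of blood cells in these genes was not tested. Ifi44 had 2 counts in bone GFP- and 1571 in bone chip GFP-, a ratio of 315 (95% exact interval 87.1 to 2603). The smallest members in size of change were Ifit2 (1.46), Irf7 (2.4) and Ifit3 (2.49). Leaving out 1 library kept 14 or 15 of the 15, and 15 were higher without bone GFP- replicate 1 and bone chip GFP- replicate 2. B2m, the light chain of class I histocompatibility molecules, which interferons induce, was at 95.8, 78.4 and 114 CPM against 1594, 1440.4 and 1102 CPM (3.84 ± 0.23, adjusted p = 5.2e-06).

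Cytokine and chemokine genes were higher in 12 of 14 and lower in 1, with a median of 4.48. Ccl5, which attracts T cells and monocytes, was at 0.677, 0.176 and 0.899 CPM against 234, 172 and 140.1 CPM (8.26 ± 0.39, adjusted p = 2.3e-06). The monocyte chemokine Ccl2 differed by 5.98 ± 0.28, leukaemia inhibitory factor, Lif, by 5.23 ± 0.41 and interleukin 6, Il6, by 4.02 ± 0.55. The ligands of osteoclast formation were higher as well, Tnfsf11, RANKL, by 4.46 ± 0.45 and Csf1 by 3.94 ± 0.23, whereas the RANKL decoy Tnfrsf11b was not called (0.23 ± 0.35, adjusted p = 0.582; without bone chip GFP- replicate 2 it was higher, 0.58, adjusted p = 0.0277) and Il11 was lower (-1.99 ± 0.39). Il1b was at 1.18, 0.352 and 0.539 CPM against 12.8, 186 and 10.6 CPM (6.62 ± 1.5, adjusted p = 0.00463) and Tnf at 1.18, 0.176 and 1.62 CPM against 18.6, 162 and 17.8 CPM (6.04 ± 1.19, adjusted p = 0.00222). Those 2 cytokines of macrophages were highest in bone chip GFP- replicate 2, where the macrophage sum was 5380 CPM, and neither was called by limma voom. The list gave 12 higher also without that library and bone GFP- replicate 1.

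Collagen genes of soft matrix and basement membrane gave 6 higher and 2 lower of 14. Col12a1, a fibril-associated collagen, was at 409, 436 and 484 CPM against 3108, 1816 and 3857 CPM (2.72 ± 0.29, adjusted p = 7.4e-05), and Col5a2, a chain of the fibril-nucleating type V collagen, at 868, 701 and 1176 CPM against 3902, 2815 and 3972 CPM (1.96 ± 0.25, adjusted p = 2.1e-04). Col15a1, a collagen of the basement membrane zone, was at 61.2, 73.8 and 109 CPM against 9.56, 15.7 and 6.62 CPM (-2.94 ± 0.35, adjusted p = 1.4e-04). These transcripts are long, and after the length correction the list gave 3 higher and 3 lower, with Col5a1 at 0.63 (adjusted p = 0.183) against 1.91 ± 0.41 before.

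Genes whose products modify collagen were mostly lower, 13 of 22 against 4 that were higher, with a median of -0.63. In the endoplasmic reticulum the prolyl 3-hydroxylase genes Lepre1 and Leprel1 were lower: Lepre1 was at 838, 1004 and 637 CPM against 109, 90.3 and 119.6 CPM (-2.96 ± 0.22, adjusted p = 1.2e-05) and Leprel1 at 264, 277 and 274 CPM against 22.5, 23.7 and 20.8 CPM (-3.60 ± 0.14, adjusted p = 1.6e-06). The collagen chaperone Serpinh1 differed by -1.98, the isomerase Fkbp10 by -2.01 and the prolyl 4-hydroxylase P4ha2 by -1.64, while P4ha1 (-0.06) was not called. Outside the cell the lysyl oxidases, which crosslink collagen, parted: Lox was at 79.2, 72.2 and 69.7 CPM against 8526, 5855 and 10448 CPM (6.81 ± 0.31, adjusted p = 2.1e-06), Loxl1 (2.05) and Loxl2 (2.08) were higher, and Loxl3 (-2.57) and Loxl4 (-1.64) were lower. P4ha3 (0.94) was the fourth gene that was higher.

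Of 16 metalloproteinase and inhibitor genes tested, 10 were higher and 1 was lower. Mmp3, stromelysin 1, was at 29.1, 44.7 and 60.4 CPM against 1409, 833 and 3188 CPM (5.34 ± 0.56, adjusted p = 7.4e-05), and Adamts5, an aggrecanase, at 19.96, 19.5 and 13.5 CPM against 234, 165 and 318 CPM (3.76 ± 0.29, adjusted p = 1.4e-05). Mmp19 differed by 3.63 ± 0.27, and the inhibitors Timp1 (1.34), Timp2 (1.43) and Timp3 (1.13) were also higher. Mmp2 (-0.11), the gelatinase, and Mmp14 (0.31), its activator, were not called. Mmp10, the member that was lower, differed by -1.47 ± 0.57 (adjusted p = 0.0472), and its call was lost in each fit without 1 library but that without bone chip GFP- replicate 3 (-1.09 to -1.71, adjusted p = 0.0516 to 0.176).

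**Figure D3:**
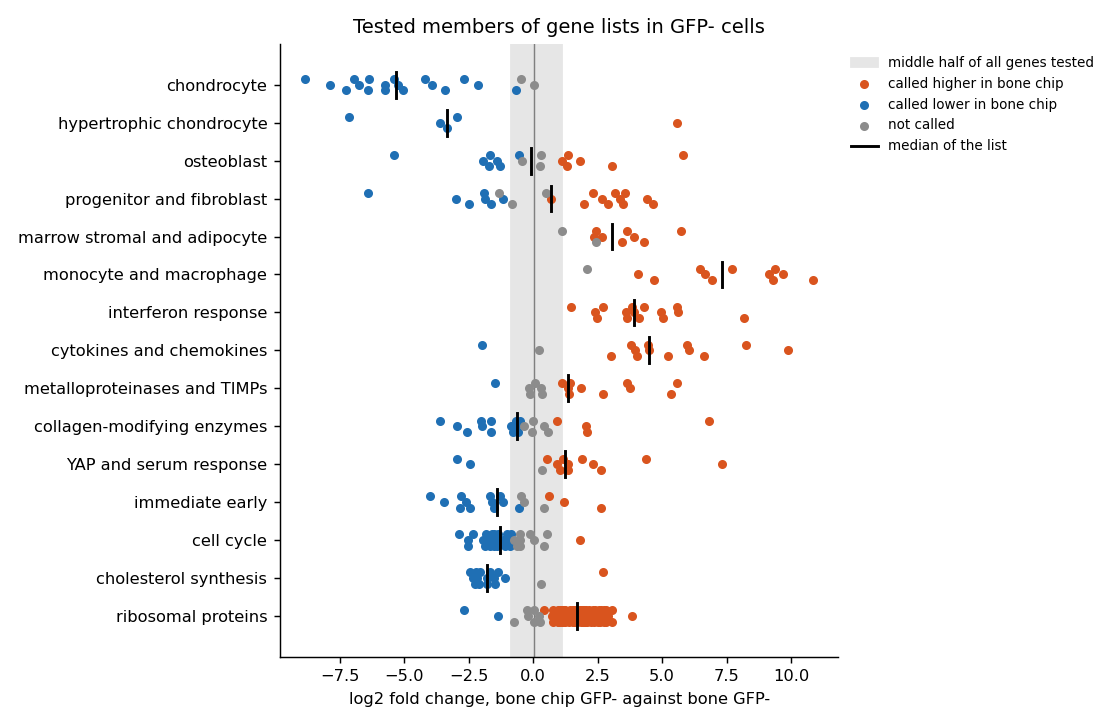
Log2 difference, bone chip GFP- minus bone GFP-, of every tested member of 15 lists, with points coloured by whether the gene was called higher, lower or neither and a grey band for the interquartile range of all tested genes. All 15 interferon-response genes lie above 0, and 19 of the 20 chondrocyte genes lie below 0.

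Cell cycle genes were lower in 22 of 32 and higher in 1, with a median of -1.27. Among genes of mitosis, Cdc20, an activator of the anaphase-promoting complex, was at 91.4, 99.8 and 87.5 CPM against 11.7, 9.31 and 16.9 CPM (-2.87 ± 0.23, adjusted p = 1.7e-05), and the kinase genes Aurkb and Aurka differed by -2.54 ± 0.23 and -2.52 ± 0.26. Among genes of DNA replication, the licensing factor Cdc6 differed by -2.33 ± 0.33 and all 6 helicase genes from Mcm2 to Mcm7 were lower, by -0.84 to -1.96. Mki67, the proliferation antigen, was the single gene that was higher (1.82 ± 0.19), and after the length correction no gene of the list was higher and 26 were lower.

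The inhibitors of the cell cycle and p53 targets gave 7 higher and 5 lower of 14. Cdkn2a, which encodes p16 and p19, had 2 counts in bone GFP- and 902 in bone chip GFP-, a ratio of 181 (95% exact interval 49.9 to 1496), and was at 22.4, 24.04 and 18.1 CPM in bone chip GFP-. Cdkn1b, p27, was at 2.03, 1.41 and 1.08 CPM against 44.8, 39.6 and 35.8 CPM (4.72 ± 0.25, adjusted p = 3.4e-06), and Cdkn2b, p15, differed by 3.29. Cdkn1c, the imprinted p57 that chondrocytes express as they leave the cycle, was at 2467, 2672 and 1944 CPM against 41.1, 39.8 and 22.3 CPM (-6.10 ± 0.32, adjusted p = 3.2e-06). Cdkn1a, p21, differed by -1.25. Among p53 targets Gdf15 (3.62 ± 0.61) and Trp53inp1 (3.34 ± 0.28) were higher and Bbc3 (-3.53 ± 0.19) was lower.

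Immediate early genes, which answer a stimulus without new protein synthesis, were lower in 12 of 18 and higher in 3, with a median of -1.41. Jund was at 2246, 1852 and 1913 CPM against 129.7, 129.8 and 121 CPM (-3.98 ± 0.18, adjusted p = 1.9e-06), Ier2 at 1635, 1391 and 1293 CPM against 211, 206 and 189 CPM (-2.83 ± 0.17, adjusted p = 5.1e-06) and Atf3 at 745, 583 and 756 CPM against 60.5, 158 and 79.7 CPM (-2.80 ± 0.35, adjusted p = 1.9e-04). Klf2 differed by -3.44 ± 0.27. In the heat shock list 4 were higher and 4 lower of 9: the inducible genes Hspa1a (-1.95 ± 0.17), Hspa1b (-1.78 ± 0.18), Dnajb1 (-3.56 ± 0.17) and Hspb1 (-1.85 ± 0.29) were lower, with Hspa1a and Hspa1b nearly identical and their split uncertain, and the chaperone genes Hsph1, Hsp90aa1, Hspa8 and Hspd1 were higher by 0.38 to 1.21. The call of Hspd1 was lost without bone GFP- replicate 3 or bone chip GFP- replicate 1 or 3 (0.34 to 0.43, adjusted p = 0.0534 to 0.0937). How the fresh cells were released from bone, and how long the sort took, were not given in the sources used here.

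Targets of YAP and of serum response factor, which are known to follow spreading on a stiff surface, were higher in 11 of 14 and lower in 2. Vcl, vinculin of focal adhesions, was at 57.5, 59.2 and 73.9 CPM against 454, 372 and 356 CPM (2.63 ± 0.18, adjusted p = 7.9e-06). Ankrd1 had 1 count in bone GFP- and 509 in bone chip GFP-, a ratio of 204 (95% exact interval 36.5 to 8078). The 2 that were lower were the matricellular genes Ctgf, at 1957, 1300.5 and 2253 CPM against 212, 171 and 319.5 CPM (-2.97 ± 0.31, adjusted p = 6.5e-05), and Cyr61 (-2.45 ± 0.19), both of which cartilage also expresses.

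Genes of cholesterol synthesis and uptake were lower in 14 of 16 and higher in 1, with a median of -1.79. Msmo1, a sterol oxidase, was at 279, 356 and 276 CPM against 63.2, 50.3 and 51.3 CPM (-2.47 ± 0.17, adjusted p = 9.8e-06), Lss, lanosterol synthase, at 126, 153 and 111 CPM against 29.4, 20.7 and 28.3 CPM (-2.32 ± 0.19, adjusted p = 2.3e-05) and Insig1, the sterol sensor, at 728, 814 and 623 CPM against 147, 152 and 149 CPM (-2.27 ± 0.16, adjusted p = 9.4e-06).

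Glycolysis and hypoxia genes gave 9 higher and 3 lower of 19. Higher were the hypoxia-induced Car9 (5.33 ± 0.60), Egln3 (4.05 ± 0.36) and Adm (3.54 ± 0.25) and the glycolytic genes Hk2 (1.82 ± 0.17) and Pgk1 (1.28 ± 0.25). Lower were Ldha (-1.01 ± 0.17), Pfkl (-0.72 ± 0.20) and Pkm (-0.64 ± 0.17), the genes of lactate dehydrogenase, phosphofructokinase and pyruvate kinase, the last losing its call without bone chip GFP- replicate 3 (-0.56, adjusted p = 0.0519). The glucose transporter Slc2a1 (-0.01) and the mitophagy gene Bnip3 (-0.38) were not called. With upper-quartile factors the list gave 8 higher and 5 lower, and with plain totals 9 and 1.

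Glucocorticoid-responsive genes, listed because dexamethasone is common in osteogenic media, gave 3 higher and 4 lower of 9. Tsc22d3 was at 384, 395 and 329 CPM against 42.5, 51.3 and 31.5 CPM (-3.15 ± 0.21, adjusted p = 7.9e-06), Per1 differed by 1.29 ± 0.14 and Ddit4 by 3.22 ± 0.20, and Fkbp5 (0.30) was not called. Of 8 targets of the oxidative stress factor NRF2, 2 were higher and 1 lower, and 2 and 3 with upper-quartile factors. Hmox1, haem oxygenase, was at 34.8, 37.1 and 44.2 CPM against 281, 269 and 265 CPM (2.81 ± 0.15, adjusted p = 3.5e-06), Srxn1 differed by -2.15 ± 0.19, and the cystine transporter Slc7a11, at 1.36 ± 0.42, lost its call without bone GFP- replicate 1 (adjusted p = 0.0607) or 3 (adjusted p = 0.0757) and turned to -0.060 after the length correction.

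Among targets and antagonists of BMP and TGF-beta signalling 5 were higher and 6 lower of 14, and the antagonists themselves moved apart. Nog, noggin, was at 79.7, 56.4 and 71.0 CPM against 4.08, 5.08 and 6.68 CPM (-3.69 ± 0.23, adjusted p = 6.0e-06). Grem1, gremlin, was at 5.92, 7.91 and 14.6 CPM against 105, 89.3 and 126 CPM (3.50 ± 0.32, adjusted p = 3.3e-05) and Fst, follistatin, at 9.64, 9.67 and 16.5 CPM against 87.6, 84.5 and 103 CPM (2.94 ± 0.24, adjusted p = 1.8e-05). The target genes split as well, with Smad6 (1.04) higher and Id4 (-2.74) and Bambi (-2.48) lower.

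Wnt targets and antagonists gave 3 higher and 7 lower of 14. Lef1, a transcription factor of the pathway, was at 58.2, 62.6 and 49.97 CPM against 2.09, 1.27 and 1.29 CPM (-5.23 ± 0.24, adjusted p = 2.0e-06). The secreted antagonists Wif1, at 522, 926 and 961 CPM against 41.3, 33.2 and 46.8 CPM (-4.31 ± 0.29, adjusted p = 8.0e-06), and Notum (-3.34 ± 0.43) were lower too, as was the feedback gene Nkd1 (-3.20). Apcdd1 (3.35 ± 0.76) and Dkk3 (3.14) were higher.

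Ribosomal protein genes were higher in 71 of 80 tested and lower in 2, with a median of 1.69, the largest being Rps12 at 37.4, 22.3 and 54.6 CPM against 548, 573 and 515 CPM (3.84 ± 0.31, adjusted p = 1.9e-05). Many have processed copies elsewhere in the genome, so counts of single members are uncertain. Their annotated transcripts had a median length of 946 bases. Of the reference genes often used for scaling, Actb, at 366, 228 and 325 CPM against 2329, 2806 and 2272 CPM (3.01 ± 0.23, adjusted p = 1.4e-05), and Gapdh (1.04 ± 0.24) were higher with B2m, Tbp (-1.17 ± 0.25) was lower and Hprt was not called (-0.24 ± 0.18, adjusted p = 0.282).

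The difference between the sources followed transcript length over all genes. With the 11873 tested genes that have an annotated length (93.8%) split into 10 bins of like size, the median log2 difference went from -0.57 in the shortest bin, up to 1325 bases, to 1.21 in the longest, 6455 to 28204 bases, and the share of genes called higher from 20.02% to 64.8%. In GFP+ (hi) cells, the sorted cells with high reporter signal from the same 2 sources, the medians went from -0.48 to 1.02. After a correction that removed the trend within each library, the bins lay between -0.08 and 0.04, and 3548 genes were higher and 3939 lower. With that correction 19 of 20 chondrocyte genes were lower, 15 of 15 interferon-response genes, 12 of 14 cytokine genes and 12 of 12 macrophage genes were higher, and 12 of 14 cholesterol genes were lower. The cause of the trend was not tested.

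**Figure D4:**
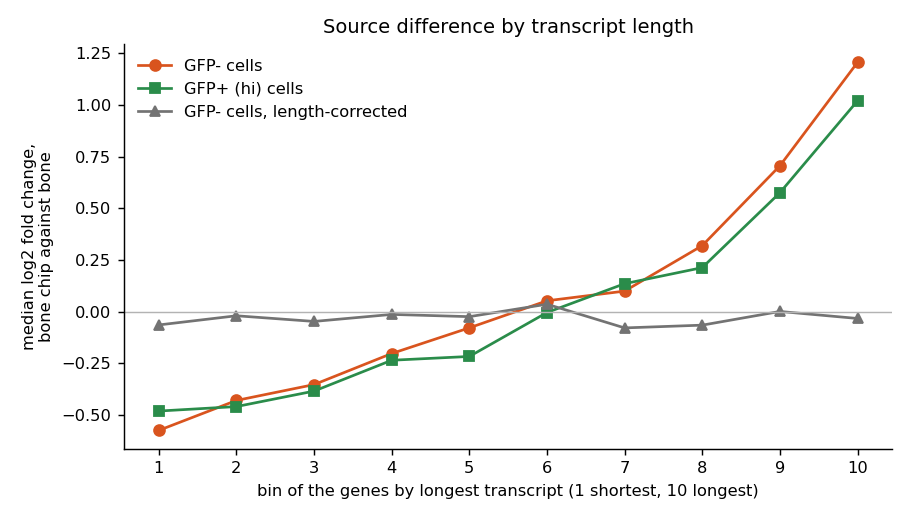
Median log2 difference between bone chip and fresh bone in each of 10 bins of transcript length, for GFP- cells, for GFP+ (hi) cells and for GFP- cells after the length correction. The GFP- line climbs from -0.57 to 1.21 and the corrected line stays between -0.08 and 0.04.

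Because tables and sources coincide, the same contrast in the GFP+ (hi) libraries, 3 of each source, was used to ask which differences were of another size in GFP- cells. A factor that multiplies a gene equally in both populations of a source cancels there. Sex was no such factor: on the scale of all 12 libraries Ddx3y was at 68.0, 117 and 51.3 CPM in bone GFP- but at 0.225, 40.9 and 0.281 CPM in bone GFP+ (hi), so that replicate 2 of the latter stood apart, and at most 0.0720 CPM in the chip libraries. Its part in the differences was not tested. In GFP+ (hi) cells alone 30.9% of 12556 genes were higher and 31.6% lower in bone chips. The difference of the source differences, GFP- minus GFP+ (hi), was called in 4108 of 13574 genes (30.3%), positive in 14.7% and negative in 15.6%, and in 3977 genes without bone GFP+ (hi) replicate 2.

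The cartilage genes showed such a difference in most members. Of 20 chondrocyte genes 18 had a more negative source difference in GFP- cells, and in GFP+ (hi) cells 6 were higher and 4 lower of 16 tested. Col2a1, on the scale of all 12 libraries, was at 4763, 3026 and 1929 CPM in bone GFP+ (hi) and at 3973, 5148 and 4461 CPM in bone chip GFP+ (hi), where the source difference was 0.42 ± 0.29 (adjusted p = 0.233). The bone GFP+ (hi) and bone chip GFP+ (hi) ranges overlapped. The difference of source differences was -5.72 ± 0.57 for Col2a1 (adjusted p = 1.2e-05), -7.84 ± 0.59 for Acan (adjusted p = 1.5e-06) and 0.80 ± 1.28 for Cd34 (adjusted p = 0.679). Without bone GFP+ (hi) replicate 2 the 3 values were -5.68, -7.83 and -2.32, the last then called (adjusted p = 0.00226). Acan was at 40.8, 26.6 and 12.4 CPM in bone GFP+ (hi) and at 478, 843 and 375 CPM in bone chip GFP+ (hi), the opposite direction to that in GFP- cells.

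Glycolysis and hypoxia genes separated the populations too. In GFP+ (hi) cells 18 of 19 were higher in bone chips, the median being 2.50, and in 15 of 19 the source difference was more negative in GFP- cells, with Adm the 1 positive exception (1.43 ± 0.37, adjusted p = 0.0120). Bnip3 differed by 4.78 in GFP+ (hi) and by -0.38 in GFP- cells, a difference of -5.23 ± 0.42 (adjusted p = 2.2e-06), and Slc2a1 by 4.40 and -0.01, a difference of -4.48 ± 0.39 (adjusted p = 4.4e-06). Among cholesterol genes none was lower in GFP+ (hi) cells and 7 of 16 were higher, and 13 of 16 had a negative difference, led by Lss at -3.70 ± 0.28 (adjusted p = 1.6e-06).

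Matrix-processing genes differed in both directions. Of 17 metalloproteinase and inhibitor genes 10 had a more positive and none a more negative source difference in GFP- cells, Adamts5 at 3.64 ± 0.40 and Mmp14 at 1.78 ± 0.25 among them. Of 22 collagen-modifying genes 12 were more negative and 4 more positive, with Leprel1 at -7.45 ± 0.34 and Loxl4 at -5.23 ± 0.35 against Lox at 5.98 ± 0.29. Col1a1 was at 595391, 636480 and 620334 CPM in bone GFP+ (hi) and at 138678, 122770 and 150957 CPM in bone chip GFP+ (hi), a source difference of -2.24 ± 0.15 against 1.33 ± 0.35 in GFP- cells, and the difference between them was 3.50 ± 0.44 (adjusted p = 8.6e-05). Bglap fell in both populations, by 7.56 in GFP+ (hi) and by 1.95 in GFP- cells on the log2 scale.

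Further lists held members that differed between the populations, to be read against the 30.3% of all genes. They were 4 of 5 hypertrophic chondrocyte genes, 11 of 16 osteoblast genes, 9 of 14 BMP and TGF-beta genes, 6 of 9 heat shock genes and 8 of 14 YAP and serum response genes. Interferon-response genes were higher in 15 of 15 in GFP+ (hi) cells (median 3.38), and the difference was positive in 5 and negative in 2. Ribosomal protein genes were higher in 70 of 81 in GFP+ (hi) cells, and 9 showed a difference in either direction. Macrophage genes were higher in 12 of 14 in GFP+ (hi) cells, so that gate too held their counts, and the difference was called in 1 of 14, or 2 with the replicate block within each source. Immediate early genes were lower in 14 of 18 and higher in 1 in GFP+ (hi) cells, and 7 of 18 showed a difference, or 3 without bone GFP+ (hi) replicate 2. Marrow stromal genes were higher in 7 of 8 tested in GFP+ (hi) cells and lower in 1, and 4 of 10 showed a difference.

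**Figure D5:**
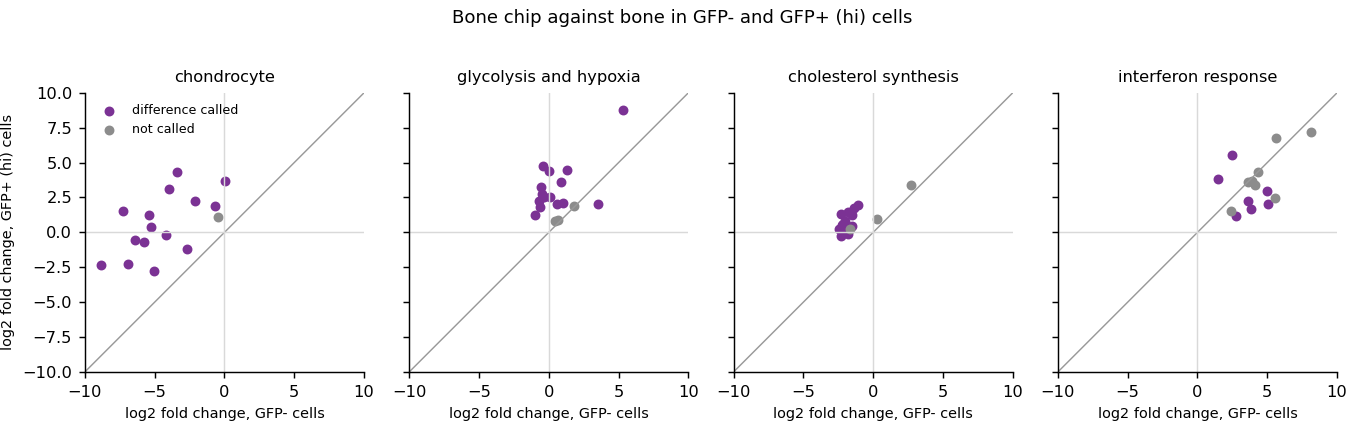
Log2 difference between bone chip and fresh bone in GFP- cells against the same difference in GFP+ (hi) cells for the chondrocyte, glycolysis and hypoxia, cholesterol synthesis and interferon-response lists, with genes whose 2 differences differed by test in purple. Col2a1 lies at -5.24 in GFP- and 0.42 in GFP+ (hi) cells, off the line of equal differences.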

How the data were processed

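RNA of sorted cells was poly-A selected, made into paired-end libraries with a kit that does not mark strand, and sequenced. Per the submitters' processing notes, STAR 2.4.2a, the mouse build mm9, DESeq2 and R 3.2.2 were used; the counting tool and its strand setting were not given in the sources used here. The authors deposited whole-number counts per gene symbol, with no normalization, in a table for each source. The tables list genes with a total of at least 2 counts, and no per-sample column was left unused (0). The tables were joined by symbol, and the 6 GFP- libraries were fitted alone.

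Genes passed edgeR's filterByExpr with a minimum count of 10. Totals were scaled by trimmed mean of M values (TMM), and differences were tested with edgeR 4.0.16 (glmQLFit and glmQLFTest, two-sided, limma 3.58.1, R 4.3.3), with Benjamini-Hochberg adjustment over all genes tested and a threshold of 0.05. Fold changes are fitted log2 values with their standard errors. The comparison with GFP+ (hi) cells was an interaction term over 12 libraries. Whether equal replicate numbers pair libraries was checked by the correlation of their deviations from the group means. It was -0.137, -0.111 and 0.0709 between bone and bone chip GFP-, and -0.0232, -0.0283 and 0.0327 between GFP- and GFP+ (hi) of bone. Between GFP- and GFP+ (hi) of bone chips it was 0.145, 0.295 and 0.354. With 3 libraries a group these values cannot establish a pairing. Bone GFP- replicate 1 and bone chip GFP- replicate 2, of unequal numbers, reached 0.232. The labels give no pairing. Alternatives used DESeq2 1.42.0, limma voom, other scaling factors, filters, thinning, a replicate block and each library left out; the length correction fitted transcript length within each library. Scripts were tested on simulated data with known changes. Of log2 changes of 1 and of 2, 29.9% and 85.7% were recovered in the GFP- comparison. In the comparison with GFP+ (hi) cells 6.19% and 50.5% were, so genes not called there may still differ. Python 3.11.15, pandas 2.3.3, scipy 1.17.1 and matplotlib 3.10.9 were used.

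The genes named were the label markers, the 15 largest rises and 15 largest falls among called genes that did not overlap and reached 10 CPM in the higher group, up to 4 called members of each list with a mean of at least 2 CPM, the 8 largest differences between populations in each direction, and reference genes; some genes that met this rule are not reported here. Other members were named after their values were seen, mostly as exceptions to a list's direction. The members and the 42 lists, of 590 genes, were chosen with earlier results of these data known, and 3 gene families were added after values were seen. Positions are from GENCODE vM1 on mm9 and promoters from RefSeq GRCm38.p6. Ratios of counts carry 95% exact conditional Poisson intervals, and a gene at 0 was set to a floor of 3 counts over the group; intervals and floors cover counting error only. Precision follows depth: bone GFP- libraries held 5482065 to 6468750 counts and bone chip GFP- libraries 9829832 to 17553194.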

Additional observations from a re-analysis of the deposited data

Results flagged for a closer look

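The source difference, bone chip minus fresh bone, was of another size in GFP- than in GFP+ (hi) cells in 18 of the 19 genes considered, by the interaction term of edgeR. Of these 19, 16 were chosen as the 8 largest differences in each direction, so that count follows from the choice; over all genes the difference was called in 30.3%. The values below are the difference of the 2 source differences on the log2 scale, positive where the GFP- difference was the more positive. Groups of 3 libraries were not searched for an outlying library.

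The label markers Col2a1 (-5.72, adjusted p = 1.2e-05) and Acan (-7.84, adjusted p = 1.5e-06) were negative. The positive genes were Tmem200a (12.01), Clec14a (8.77), Clec2d (8.39), Fbn2 (8.15), Rcan2 (7.61), Angpt2 (7.47), Rgs17 (7.35) and Slc30a3 (7.17). In Fbn2, a microfibril protein, the GFP- libraries went from 5.09, 4.24 and 4.87 CPM in bone to 133, 121 and 98.3 CPM in chips, and the GFP+ (hi) libraries from 64.4, 71.8 and 52.5 to 5.31, 7.99 and 3.16 CPM. Rcan2, an inhibitor of calcineurin, went from 2.29, 1.59 and 0.677 to 54.2, 52.2 and 43.0 CPM in GFP- and from 56.2, 49.5 and 42.4 to 7.27, 10.4 and 6.81 CPM in GFP+ (hi) cells. Clec14a and Angpt2, genes known from endothelium, were at 69.7, 48.3 and 51.6 CPM and at 20.02, 27.5 and 28.5 CPM in bone GFP+ (hi), the highest group for both, and were at most 0.619 and 0.817 CPM in bone chip GFP+ (hi).

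The negative genes were Il17b (-12.17), Crtac1 (-10.83), Gal3st1 (-10.71), Lamb3 (-10.36), Tnfrsf13c (-9.85), Dnajc22 (-9.51), H2-Ab1 (-9.44) and Col10a1 (-9.43). Col10a1 was at 1248, 557 and 1225 CPM in bone GFP- and 128, 108 and 156 CPM in bone chip GFP-, against 3.11, 1.74 and 1.24 CPM in bone GFP+ (hi) and 146, 292 and 127 CPM in bone chip GFP+ (hi). H2-Ab1 was at 0.262, 0 and 0 CPM in bone GFP+ (hi) and at 18.4, 21.97 and 16.03 CPM in bone chip GFP+ (hi). Il17b and Tnfrsf13c had at most 1 count in each GFP+ (hi) library, so their fitted differences rest on genes near 0 there and are no bounds. The same limit holds for other genes with a group at or near 0. Rgs17 and Clec2d had no count in bone GFP-, and Tmem200a and Slc30a3 had 1 count there. Crtac1 had no count in bone chip GFP-, and H2-Ab1 was near 0 in bone GFP+ (hi). The call was lost without 1 library in 3 genes: bone GFP+ (hi) replicate 3 for Clec2d, bone chip GFP+ (hi) replicate 3 for Il17b and bone chip GFP+ (hi) replicate 2 for Tnfrsf13c, each at an adjusted p of 0.9998. With the replicate block within each source Il17b (adjusted p = 0.0591) and Tnfrsf13c (adjusted p = 0.0536) lost it too.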

How the results depend on the processing

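The counts of genes higher (4269) and lower (4035) stayed within 1.5 times under every alternative but a test against a log2 threshold of 1, which gave 2340 and 1802. Leaving out 1 library, or 1 of each source, gave 3814 to 4271 higher and 3478 to 4110 lower, and 3271 to 4476 genes for the difference between GFP- and GFP+ (hi) cells. Scaling by plain totals moved the median of all genes to 0.22, with 4715 higher and 3293 lower, and upper-quartile factors to -0.09, with 3927 and 4465, so changes smaller than this shift depend on the scaling. Whether replicate numbers pair libraries could not be established from 3 libraries a group. With the replicate block 4108 genes were higher and 3758 lower, and 3977 differed between populations. With a replicate block within each source 3882 genes differed between populations. Of the 19 genes named for that difference, Il17b and Tnfrsf13c then lost their call.

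Over 266 genes and the alternatives, 5363 values were counted as the same, 179 lost the call, 11 gained one and 5 reversed. A value called neither before nor after was counted as the same even where its sign changed, as for Mepe (-0.84 to 0.46). The source difference of Ebf1 turned to -0.036, that of Slc7a11 to -0.060 and that of Sox6 to -1.25 after the length correction. That of Camp, -1.87, lay between -2.47 and 2.39 with 1 library left out, the highest without bone GFP- replicate 1, and was 2.67 without bone GFP- replicate 1 and bone chip GFP- replicate 2. For Cd34 the difference between populations, 0.80, ranged from -2.32 to 1.44 with 1 library left out and was -2.32 (adjusted p = 0.00226) without bone GFP+ (hi) replicate 2, the library with 7.53 CPM against 0.225 and 0.337 CPM in the other bone GFP+ (hi) libraries. For these 5 the cause was not tested. Setting genes of 1 table to 0 in the other gave 4300 higher and 4085 lower; that setting, the length correction, the block within each source and the fit without the 2 libraries that stood apart were chosen after seeing the data. At the smallest total, 5482065 counts, genes of a few CPM rest on few counts, and source, table and sex cannot be told apart in the fits of GFP- libraries alone.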

Other observations

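The replication-dependent histone genes, most of whose transcripts carry no poly-A tail, were lower in 33 of 34 tested and higher in none, with a median of -3.34, and in GFP+ (hi) cells 24 of 30 were lower and 1 was higher. Their summed level was 423 to 715 CPM in bone GFP- and 72.5 to 99.2 CPM in bone chip GFP-. Subunit genes of NADH dehydrogenase, the first complex of the respiratory chain, were lower in 31 of 44 and higher in 1, with a median of -0.77, and lower in 18 of 41 after the length correction. In GFP+ (hi) cells 29 of 44 were lower. Hox genes, which mark position along the body and limb axes, were higher in 8 of 14 tested and lower in none, with a median of 0.98. Hoxa5 differed by 2.02 ± 0.43 and Hoxc11 by 3.34 ± 0.85, and the number of Hox genes that were higher was 4 without bone chip GFP- replicate 1 and 5 without replicate 3. These 3 families were picked after their values were seen, and what their changes follow from was not tested.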
